A study of Rattus norvegicus with 16 samples.

Results

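Kidneys of rats that received deoxycorticosterone acetate (DOCA), salt and finerenone differed from sham kidneys in 603 genes. The comparison set the 4 Finerenone libraries against the 4 Control libraries, gene by gene, and asked what lay away from the control level under the drug. Not all of these genes also differed between DOCA and Control, and some differed there in the other direction, as given below. A gene entered where its estimated read count was above 4 in at least 3 of these 8 libraries, which held for 13897 of the 32623 genes in the deposited table. The series holds 16 bulk RNA-seq libraries of kidney, 4 each for Control, DOCA, Finerenone and Spironolactone. All came from male Sprague-Dawley rats and are labelled as adult kidney. Their age entry reads 6 weeks, the study describes its bulk data as coming from 6 weeks of treatment, and the labels do not say which of these the entry records.

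Control rats had a sham operation, oil injections and tap water. Rats of the DOCA, Finerenone and Spironolactone groups all lost 1 kidney by uninephrectomy and all received DOCA injections and salt in their water. They were also gavaged daily, with vehicle in the DOCA group, finerenone in the Finerenone group and spironolactone in the Spironolactone group. The study describes no gavage for the sham rats. Every Finerenone against Control difference below covers the operation, DOCA, salt, any difference in gavage and the drug together. These cannot be told apart within this comparison. A piece of frozen kidney was used for each library, so that fewer cells of a type and less RNA per cell cannot be told apart either. Of the 11 markers set for kidney (such as uromodulin, nephrin and megalin) none could be matched to a gene symbol, and the labelled tissue was not checked by them.

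The mineralocorticoid receptor is a nuclear receptor that aldosterone activates in the distal nephron, where it raises sodium uptake through the epithelial sodium channel. DOCA is a precursor steroid that activates the same receptor, and with salt and a single kidney it gives rats hypertension, proteinuria, tubular damage, inflammation and fibrosis. Finerenone is a nonsteroidal antagonist of this receptor, and spironolactone is a steroidal one. Injured proximal tubules are known to switch on secreted and adhesion proteins that healthy tubules hardly make, and fibroblasts around them lay down collagens.

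The deposited table identifies genes by Ensembl number. A symbol was assigned where the length-scaled expression values (TPM) of exactly 1 deposited gene were identical to those of a gene named in the study's own supplementary tables, which resolved 1999 of 2000 symbols. Almost all of these symbols come from the study's list of genes that differed between DOCA and Control, truncated toward genes that rose. That list was chosen on the same control libraries, so the direction of its members here is not independent evidence of direction. Among the genes called higher, 329 had a symbol (68.7%), against 4 of the genes called lower (3.23%). Genes without a symbol were called higher in 1.26% of cases and lower in 1.01%. What fell is therefore mostly unnamed here.

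The 8 libraries held between 7063158 and 8056929 estimated counts. Totals were 7577394 ± 412928 in Finerenone and 7379631 ± 326464 in Control (SD, n = 4 each; exact permutation p = 0.486, 2-sided). At this depth, 3 counts correspond to 0.377 to 0.478 CPM (counts scaled to a fixed library size, after TMM), which is taken as the floor of detection. The 50 most abundant genes took 30.0% ± 2.01 of the counts in Finerenone and 30.57% ± 0.99 in Control (exact permutation p = 0.629; the smallest p this design can give is 0.0286). The library codes carry a first number that is 2 for Finerenone 1 and 3 and is 3 for Finerenone 2 and 4. In Control it is 11 for Control 1, 12 for Control 2 and Control 3, and 10 for Control 4. What that number stands for is not given in the sources used here, and each first number occurs in 1 group only, so it and the group cannot be told apart.

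With edgeR's quasi-likelihood test, 603 of the 13897 genes (4.34%) were called, that is, had a Benjamini-Hochberg adjusted p under 0.05 and a log2 fold change of at least 0.5 in size. Of these, 479 were higher in Finerenone (3.45% of the genes) and 124 were lower (0.892%), so that 79.4% of the calls were higher. The median log2 fold change was 1.07 among genes called higher and -0.78 among those called lower, and it was -0.02 over all 13897 genes. A log2 change of at least 1 was seen in 266 of the higher genes and in 40 of the lower ones. The CPM of the 4 Finerenone and 4 Control libraries did not overlap in 525 of the 603 called genes. Over all genes, called or not, they did not overlap in 1685 (12.1%).

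The surplus of higher calls held under each scaling tried, and its size varied. Scaling by library size alone gave 672 higher and 76 lower genes (89.8% higher), and limma on log2(TPM + 1) gave 582 and 45 (92.8% higher). The count of calls also leaned on single libraries. It was 369 without Control 1, 385 without Control 3 and 348 without Finerenone 2, and it was 835 without Control 4 (all by edgeR). Of the lower calls, 67 were left without Control 1, 63 without Finerenone 2 and 72 without Finerenone 4, and there were 197 without Control 4. Of the higher calls, 302, 294 and 285 were left without Control 1, Control 3 and Finerenone 2.

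**Figure D1:**
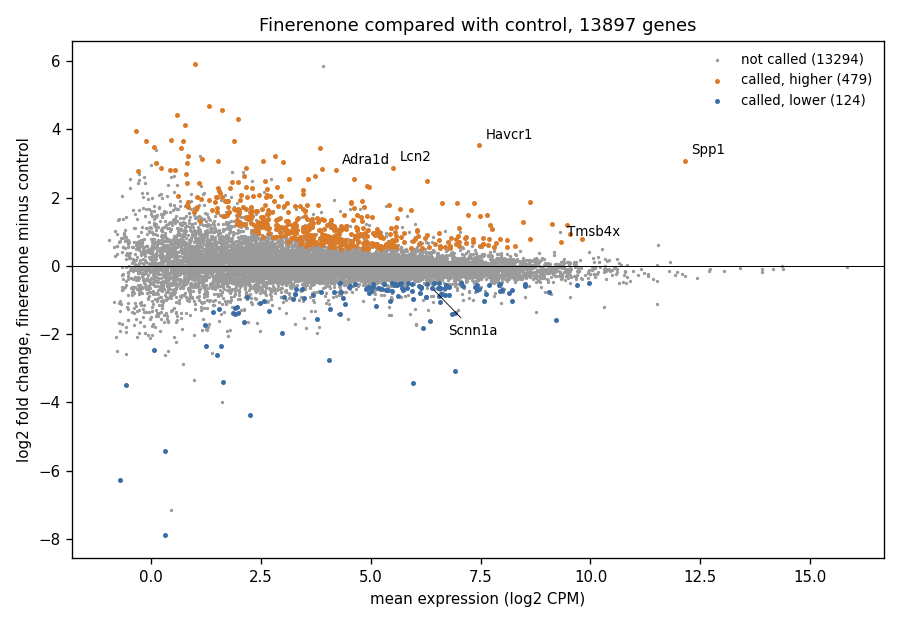
Log2 fold change of Finerenone over Control (vertical axis) against mean expression in log2 CPM (horizontal axis) for the 13897 genes, 1 point per gene. Orange points are the 479 genes called higher, blue points the 124 called lower and gray points the genes not called, and 6 named genes are labelled.

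The other groups place these differences. The genes called higher in Finerenone had a median log2 fold change of 1.07 against Control, and in DOCA against Control their median was 1.61. Those called lower had medians of -0.78 in Finerenone and -0.76 in DOCA. In Spironolactone against Control the medians were 1.66 and -0.90. These comparisons share the Control libraries, so the values are given side by side only.

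Genes of tubule injury and repair held the largest named differences. Of 42 genes on this list, 33 had a symbol, and 18 of the 33 were called higher, none lower and 15 not called. Over all 1999 genes with a symbol, 16.5% were called higher, which is the share to set beside the count of every list below. The median log2 fold change of the 33 genes was 0.72, against 0.31 over all genes with a symbol and -0.02 over all genes. Their summed CPM ran from 1742 to 2284 in the Control libraries and from 4036 to 6785 in the Finerenone libraries. Much of that difference was Spp1, and without it the sums ran from 1560 to 1841 in Control and from 2301 to 2997 in Finerenone.

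Havcr1, which encodes a phosphatidylserine receptor (KIM-1) that injured proximal tubule cells display, had 12.1, 1.25, 1.40 and 12.7 CPM in Control 1 to 4. In Finerenone 1 to 4 it had 42.7, 93.3, 77.1 and 102 CPM. Every Finerenone library was above every Control library, and the Controls themselves fell into a low pair and a higher pair. The low pair, Control 2 and Control 3, shares the first number 12, and the part of that number was not tested. The log2 fold change was 3.54 ± 0.64 (SE; adjusted p = 0.0115 by edgeR), the largest among genes with a symbol. In the 3 DOCA libraries Havcr1 had 282, 246 and 220 CPM, and Finerenone against DOCA was -1.66 ± 0.55 (adjusted p = 0.0578 by edgeR).

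Spp1, which encodes osteopontin, a secreted phosphoprotein of the matrix that draws in macrophages, was among the most abundant of the called genes in TPM. It had 387, 182, 206 and 483 CPM in the Control libraries. In the Finerenone libraries it had 1593, 3467, 1737 and 3808 CPM. The lowest Finerenone library was thus above the highest Control library, with Finerenone 2 and 4 well above Finerenone 1 and 3. The log2 fold change was 3.08 ± 0.44 (adjusted p = 0.00321 by edgeR), and the DOCA libraries lay higher still, at 7931 ± 654 CPM (SD, n = 3).

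Lcn2, which encodes lipocalin-2 (NGAL), an iron-siderophore binding protein used as a urinary injury marker, had 5.42, 2.50, 1.40 and 6.37 CPM in Control. It had 16.2, 33.7, 18.6 and 46.3 CPM in Finerenone. The groups did not overlap, and Finerenone 2 and 4 were again the highest pair. The log2 fold change was 2.88 ± 0.57 (adjusted p = 0.0165 by edgeR), and the adjusted p rose to at most 0.0536 when Control 2 or Control 3 was left out.

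**Figure D2:**
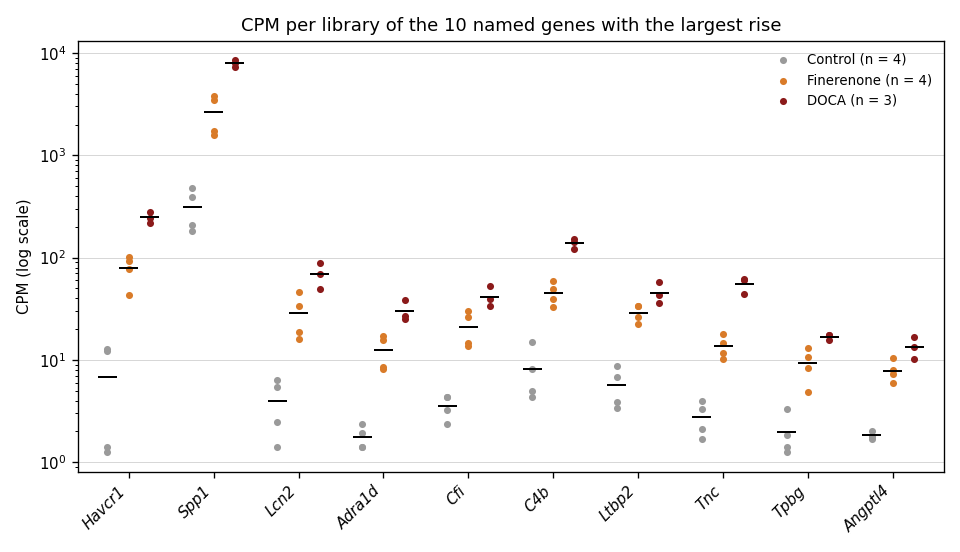
CPM of the 10 named genes with the largest rise, on a log axis, 1 point per library for Control and Finerenone (n = 4 each) and DOCA (n = 3). Short black lines are group means. All 4 Finerenone points lie above all 4 Control points for each gene, and the DOCA means are the highest.

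Other injury genes rose by less. Dcdc2, which encodes a doublecortin domain protein of primary cilia, had one of the smallest adjusted p-values of the comparison. It stood at 14.1, 16.8, 13.6 and 19.0 CPM in Control and at 47.1, 49.5, 47.6 and 55.4 CPM in Finerenone. Both groups were narrow and did not overlap, and the log2 fold change was 1.65 ± 0.14 (adjusted p = 4.75e-06 by edgeR). Cd44, the hyaluronan receptor, went from 5.54 ± 2.05 to 20.6 ± 4.65 CPM (SD, n = 4 each here and below; log2 fold change 1.90 ± 0.25). Timp1, an inhibitor of metalloproteinases, went from 5.91 ± 2.11 to 15.8 ± 3.97 CPM, a log2 change of 1.42 ± 0.25. The intermediate filament gene Vim rose by 0.80 ± 0.13 on the log2 scale, and Pdgfb, a mitogen for mesenchymal cells, by 0.94 ± 0.15.

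Clu (clusterin, a secreted chaperone) went from 213 ± 75.4 to 485 ± 122 CPM and Vcam1 (a leukocyte adhesion molecule) from 21.1 ± 2.90 to 31.3 ± 5.13 CPM. Both passed the test in the full set of libraries, with adjusted p of 0.0453 and 0.0213 by edgeR. Without single libraries these values reached 0.118 for Clu and 0.0783 for Vcam1. The remaining calls on the list were Anxa2, Anxa3, Cd24, Cp, Krt18, Lgals3, Tnfrsf12a and Tpm1. Lgals3 lost its call in 6 of 8 fits without single libraries, Anxa3 in 5, and Anxa2 and Krt18 in 4 each. Their adjusted p reached 0.135, 0.0913, 0.0706 and 0.0646 (by edgeR), in that order. Cd24, Cp, Tnfrsf12a and Tpm1 kept their calls in all 8. Of 5 markers set for injured proximal tubule, Havcr1, Spp1, Vcam1 and Pdgfb were called higher, and the cytokine gene Il34 was not, at 46.0 ± 3.11 CPM in Control and 54.3 ± 9.33 in Finerenone (log2 fold change 0.24 ± 0.11, adjusted p = 0.227 by edgeR).

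The Finerenone libraries differed among themselves in the injury genes. In 22 of the 33 genes (66.7%), both libraries with the first number 3 were above both with the first number 2, and the reverse held in 3. Over all 13897 genes these shares were 24.8% and 25.8%. With Finerenone 1 and 3 alone against the 4 Controls, 5 of the 33 were called higher, and with Finerenone 2 and 4 alone 21 were. The latter fit also called 1 gene lower, Itgav (-0.64, adjusted p = 0.0317 by edgeR). At an unadjusted p under 0.05, 19 and 26 genes were higher in these fits. For Havcr1 the log2 fold change was 3.14 (adjusted p = 0.0992 by edgeR) with the first pair and 3.88 (adjusted p = 0.017) with the second, and for Lcn2 it was 2.17 (adjusted p = 0.133) and 3.40 (adjusted p = 0.0114). Spp1 was called with either pair, at 2.41 and 3.57. Of the 33 genes, 8 were called higher with all 16 libraries and 6 with libraries of the same first number summed. In the summed fit Havcr1, Lcn2 and Spp1 were not called (adjusted p of 0.168, 0.153 and 0.0723 by edgeR). Havcr1 also lost its call in the fit of the 8 compared libraries alone, and Lcn2 with all 16 libraries and with limma-voom.

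Collagens and other matrix genes had the largest number of calls of any list. Of 48 genes on the list, 35 had a symbol. Of these, 25 were called higher, none was lower and 10 were not called, with a median log2 fold change of 0.83. Among all genes with a symbol, 16.5% were called higher, and the median was 0.31. The collagens among the called genes were Col1a1, Col3a1, Col4a1, Col4a2, Col5a2, Col6a1, Col6a2, Col14a1, Col15a1, Col16a1 and Col18a1. Leaving out single libraries gave between 22 and 27 higher genes here, and between 12 and 19 on the injury list. Finerenone 1 and 3 alone gave 15, and Finerenone 2 and 4 alone gave 26, with 30 and 27 at an unadjusted p under 0.05. With libraries of the same first number summed 12 were called, and 14 reached a log2 change of 1. The summed CPM of the list ran from 2223 to 3314 in Control and from 4078 to 4940 in Finerenone.

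Col15a1, which encodes a collagen of basement membrane zones, had the smallest adjusted p among genes with a symbol. It had 15.6, 15.1, 16.3 and 13.7 CPM in Control and 39.6, 48.9, 50.5 and 50.1 CPM in Finerenone. The groups lay far apart for their spread, with a log2 fold change of 1.63 ± 0.13 (adjusted p = 2.36e-06 by edgeR). In DOCA it stood at 96.2 ± 18.3 CPM (SD, n = 3), and Finerenone was lower than DOCA by an estimate of -1.02 ± 0.12 (adjusted p = 2.34e-05). So the level under the drug lay between both other groups and away from each.

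Col1a1, the main chain of type I collagen, had 46.6, 52.6, 38.3 and 92.4 CPM in Control and 169, 165, 156 and 152 CPM in Finerenone. Col3a1, the type III chain, had 88.1, 124, 81.7 and 140 CPM in Control and 275, 268, 265 and 253 CPM in Finerenone. In both genes the 4 Finerenone libraries were close together and above every Control, among which Control 4 was the highest. The log2 fold changes were 1.48 ± 0.22 (adjusted p = 0.00241) and 1.29 ± 0.16 (adjusted p = 0.000659, edgeR). DOCA libraries averaged 324 CPM for Col1a1 and 574 CPM for Col3a1.

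Fn1 (fibronectin) went from 45.6 ± 7.94 to 127 ± 15.2 CPM, a log2 change of 1.47 ± 0.16 (adjusted p = 0.0002 by edgeR). Dcn, which encodes decorin, a small proteoglycan that binds collagen fibrils, went from 48.0 ± 10.8 to 136 ± 21.7 CPM (1.5 ± 0.16). Tnc (tenascin C), a matrix glycoprotein of wounds, had 1.70, 3.28, 2.1 and 3.98 CPM in Control and 11.8, 14.5, 18.1 and 10.1 CPM in Finerenone. It was the leading matrix gene at 2.31 ± 0.34 (adjusted p = 0.00177), and its groups did not overlap. It also stood far below DOCA, where it averaged 55.8 CPM (Finerenone against DOCA -2.03 ± 0.26, adjusted p = 0.000154). Mgp, the matrix Gla protein that restrains calcification, was also among the most abundant called genes in TPM and went from 191 ± 40.3 to 449 ± 118 CPM.

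Enzymes that shape the matrix were also called. Lox and Loxl1, which crosslink collagen and elastin, rose by 1.18 ± 0.22 and 0.83 ± 0.16 on the log2 scale. Mmp2, a gelatinase, rose by 0.75 ± 0.14. Eln, the elastin gene, had 9.29, 15.8, 12 and 19.8 CPM in Control and 53.5, 36.7, 30.6 and 34.9 CPM in Finerenone. The Finerenone libraries were all higher, by 1.46 ± 0.23 (adjusted p = 0.00278 by edgeR). The DOCA libraries had 46.1, 36.8 and 26.4 CPM and overlapped with Finerenone fully, with a difference of 0.09 ± 0.23 between those groups (adjusted p = 0.814), which does not show that the levels are equal.

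**Figure D3:**
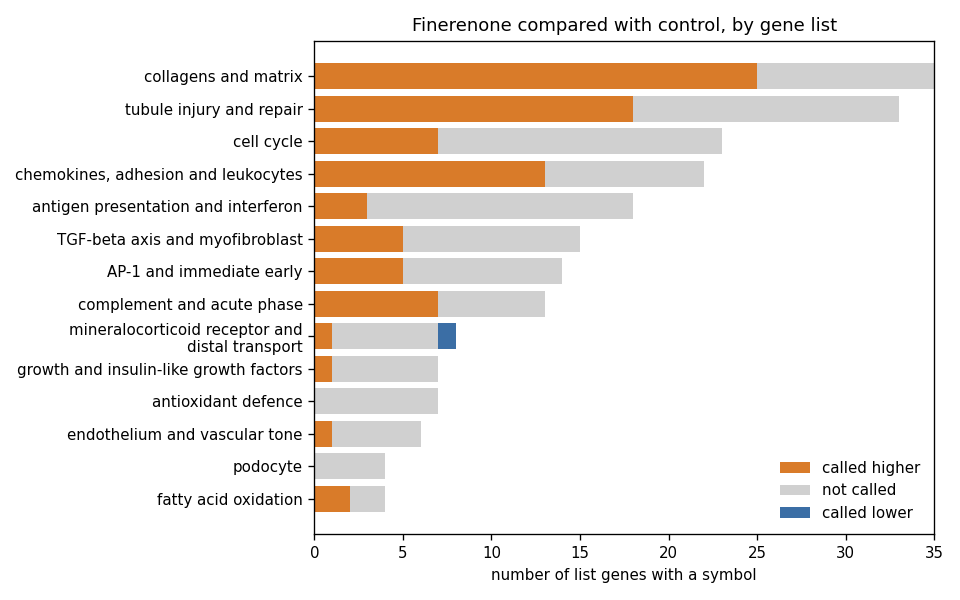
Number of genes with a symbol on each gene list that holds at least 4 of them, as stacked horizontal bars starting at 0, split into called higher, not called and called lower in Finerenone against Control. The matrix list has the most genes called higher (25 of 35), and the 1 gene called lower is on the distal transport list.

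The TGF-beta and myofibroblast list was called in part. TGF-beta is the main fibrogenic cytokine of the kidney, and myofibroblasts are the contractile cells that make scar. Of 32 genes 15 had a symbol, and 5 of these (Ltbp2, Grem1, Tagln, Tgfb1 and Thy1) were called higher, none lower and 10 not called. The median log2 fold change was 0.76. For all genes with a symbol it was 0.31, with 16.5% called higher. The count on this list was 3 without Control 2 or without Finerenone 2 and 7 without Control 4. It was 9 when scaled by library size alone or fitted with DESeq2.

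Ltbp2, a latent TGF-beta binding protein of microfibrils, had 3.87, 6.86, 3.35 and 8.76 CPM in Control and 22.6, 33.6, 26.2 and 33.3 CPM in Finerenone. It did not overlap between groups and rose by 2.35 ± 0.31 on the log2 scale (adjusted p = 0.00136 by edgeR). Grem1 (gremlin), a secreted antagonist of bone morphogenetic proteins, went from 29.8 ± 3.09 to 62.3 ± 6.78 CPM (1.06 ± 0.16). Tgfb1 itself went from 27.8 ± 2.88 to 41.0 ± 10.8 CPM, a log2 change of 0.56 ± 0.14 (adjusted p = 0.0278). The call of Tgfb1 was lost in 5 of 8 fits without single libraries (adjusted p up to 0.0897 by edgeR). It was also lost in the fit of the 8 compared libraries alone and with Finerenone 1 and 3 alone (0.27, adjusted p = 0.257 by edgeR). Thy1, a surface protein of fibroblasts and thymocytes, stood at 13.1 ± 1.16 CPM in Finerenone and 13.5 ± 2.65 CPM in DOCA, against 6.90 ± 1.87 in Control.

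Acta2, the smooth muscle actin of myofibroblasts and vessel walls, was not called. It had 27.3, 20.9, 24.9 and 38.6 CPM in Control and 88.1, 36.6, 34.3 and 34.6 CPM in Finerenone. Finerenone 1 alone stood apart, and the others overlapped with Control 4 (log2 fold change 0.79 ± 0.31, adjusted p = 0.168 by edgeR). Synpo2, the marker set for myofibroblasts, showed the same library on top, at 10.1 CPM against 1.85, 4.39 and 0.448 in Finerenone 2 to 4 (adjusted p = 0.346).

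Leukocyte genes were called higher in 13 of 22 members with a symbol (of 51 on the list), with none lower and 9 not called. Their median log2 fold change was 0.64, against 0.31 over all genes with a symbol, of which 16.5% were called higher. Lyz2, a lysozyme of monocytes and macrophages, was the most abundant of the 13 in TPM. It had 206, 208, 192 and 309 CPM in Control and 416, 418, 346 and 413 CPM in Finerenone. The groups did not overlap, and the log2 fold change was 0.80 ± 0.14 (adjusted p = 0.0043 by edgeR), with 493 ± 107 CPM in DOCA (SD, n = 3).

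Ptprc, the leukocyte common antigen CD45, went from 13.0 ± 2.28 to 25.5 ± 4.76 CPM, a log2 change of 0.97 ± 0.16 (adjusted p = 0.00188 by edgeR). The macrophage genes Cd68, Adgre1 and Csf1r rose by 0.81 ± 0.16, 0.72 ± 0.18 and 0.51 ± 0.10. Csf1r, the receptor for the growth factor that keeps macrophages alive, stood at 54.5 ± 5.94 CPM in Finerenone, between Control (38.2 ± 3.69) and DOCA (103 ± 10.4), and its estimate fell under the size set for a call without Control 1, Control 3 or Finerenone 1. Adgre1 (the F4/80 antigen) stood near DOCA instead, at 18.1 ± 2.65 against 19.6 ± 1.59 CPM, with Control at 11 ± 1.03. Its call was lost in 5 of 8 fits without single libraries (adjusted p up to 0.084 by edgeR). The complement component gene C1qa of macrophages was not called, at 38.2 ± 11.1 and 52.6 ± 8.27 CPM (0.46 ± 0.18, adjusted p = 0.159).

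Ccl21, a chemokine that guides lymphocytes and dendritic cells, had the largest change of the leukocyte list. It had 17.5, 12.8, 18.4 and 20.7 CPM in Control and 48.9, 76.3, 50.1 and 62.7 CPM in Finerenone. The difference was 1.77 ± 0.25 on the log2 scale (adjusted p = 0.00162 by edgeR) without overlap, and the DOCA libraries (45.9, 36.2 and 68.8 CPM) lay in the same range. Rat Ccl21 has near-identical copies among which reads can be split, so its level is uncertain. Icam1 (leukocyte adhesion) and Cxcl10 (an interferon-induced chemokine) rose by 0.67 ± 0.12 and 0.87 ± 0.17.

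The leukocyte count was 7 without Control 1 and 18 without Control 4. It was 5 with Finerenone 1 and 3 alone and 12 with Finerenone 2 and 4 alone, and 15 and 20 at an unadjusted p under 0.05. The lymphocyte marker Cd96 had no symbol match.

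Complement genes were called higher in 7 of 13 members with a symbol (C1s, C3, C4a, C4b, Cfi, Cfp and Serping1), with none lower and 6 not called. Their median was 0.86, against 0.31 over all genes with a symbol, of which 16.5% were called higher. Cfi, the protease that inactivates deposited complement fragments, had 3.25, 2.34, 4.33 and 4.30 CPM in Control and 13.8, 26.3, 14.6 and 30.1 CPM in Finerenone. Its groups did not overlap, Finerenone 2 and 4 were the highest, and the log2 fold change was 2.56 ± 0.37 (adjusted p = 0.00225 by edgeR). C3, the central component, had 18.7, 21.4, 17.7 and 25.3 CPM in Control and 47.7, 49.1, 42.9 and 43.9 CPM in Finerenone, which is a narrower spread and a log2 change of 1.14 ± 0.19 (adjusted p = 0.00317).

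C4b went from 8.13 ± 4.87 to 44.9 ± 11.34 CPM and C4a from 32.4 ± 7.48 to 115 ± 56.5 CPM. C4a and C4b are near-identical copies, so the split of reads between them is uncertain, as are their separate values. The count of complement genes was 5 without Control 1. With Finerenone 1 and 3 alone it was 1, and with Finerenone 2 and 4 alone it was 8, while 9 genes had an unadjusted p under 0.05 in either fit.

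Antigen presentation and interferon genes were called at about the share seen over all genes with a symbol (16.5%). Gbp2 (an interferon-induced GTPase), Irf1 (a transcription factor) and Tap2 (a peptide transporter) were the 3 called higher of 18 with a symbol, 15 were not called, and the median was 0.45. Irf1 went from 16.7 ± 3.65 to 31.4 ± 6.79 CPM (0.91 ± 0.18, adjusted p = 0.00627 by edgeR). The summed CPM of the list overlapped between groups, at 747 to 1267 in Control and 976 to 1302 in Finerenone. The class II genes RT1-Ba, RT1-Bb, RT1-Da and RT1-Db1 were among those not called, and reads of RT1 genes can be split among close copies. The count of 3 was 8 without Control 4, 2 without Control 2 and 1 without Control 1, Control 3, Finerenone 2 or Finerenone 4. It was 5 without Finerenone 1.

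Genes of the mineralocorticoid receptor pathway and of distal sodium transport did not move one way. Of 40 on the list 8 had a symbol, Trpv5 was called higher, Scnn1a was called lower, 6 were not called, and the median was -0.04. Scnn1a encodes the alpha subunit of the epithelial sodium channel and is a known target of the receptor. It had 74.4, 84.4, 95.7 and 99.1 CPM in Control and 54.3, 57.3, 60.5 and 53.6 CPM in Finerenone. All 4 Finerenone libraries were below all 4 Controls, and the log2 fold change was -0.65 ± 0.11 (adjusted p = 0.0024 by edgeR).

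In DOCA, Scnn1a had 106, 98.7 and 129 CPM, with 1 library just under the highest Control (DOCA against Control 0.33 ± 0.12, adjusted p = 0.0305). Finerenone was lower than DOCA by an estimate of -0.98 ± 0.12 (adjusted p = 2.35e-05). Spironolactone against Control was -0.04 (adjusted p = 0.816). The level of Scnn1a under finerenone was thus below both the sham and the undrugged DOCA level, and it was called lower with either pair of Finerenone libraries (-0.62 and -0.63, adjusted p of 0.0461 and 0.0119). It narrowly missed the threshold with libraries of the same first number summed (adjusted p = 0.0506 by edgeR) and with limma on log2(TPM + 1) (-0.49, adjusted p = 0.0512).

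The beta subunit gene Scnn1b did not follow, at 51.7 ± 3.97 CPM in Control and 55.9 ± 3.78 in Finerenone (0.11 ± 0.09, adjusted p = 0.509 by edgeR). Hsd11b2, the enzyme that shields the receptor from glucocorticoids, was at 350 ± 48.6 and 396 ± 38.4 CPM (adjusted p = 0.469). St14, a protease of the distal tubule surface, had an adjusted p of 0.0368 and a log2 fold change of -0.35, under the size set for a call. Among the genes that did pass, Trpv5, the calcium channel of the distal tubule, went from 9.78 ± 4.26 to 21.0 ± 4.34 CPM (1.11 ± 0.26, adjusted p = 0.0249), and its adjusted p reached 0.0744 when single libraries were left out.

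**Figure D4:**
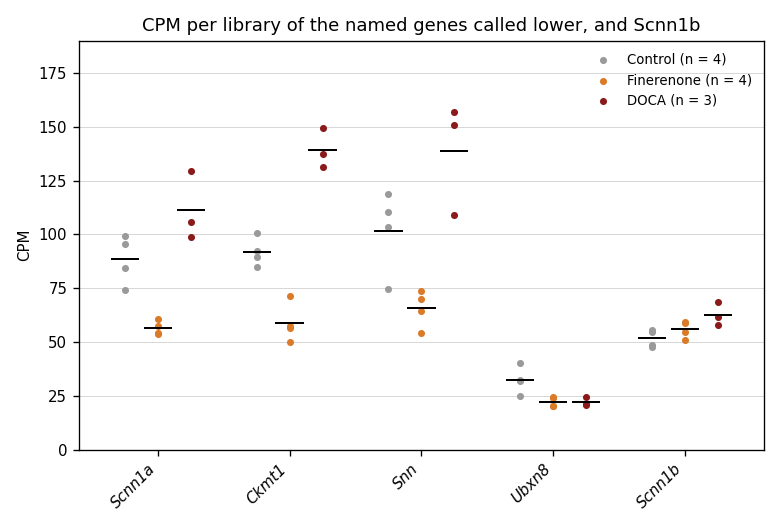
CPM of the 4 named genes called lower and of Scnn1b, 1 point per library for Control and Finerenone (n = 4 each) and DOCA (n = 3), with group means as short black lines. For Scnn1a and Ckmt1 the Finerenone points lie below both other groups, and for Ubxn8 they lie with DOCA.

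Ckmt1, Snn and Ubxn8 were the other genes called lower that had a symbol. Ckmt1, the mitochondrial creatine kinase that passes on ATP-derived phosphate, had 101, 84.9, 89.3 and 92.4 CPM in Control and 71.5, 49.9, 56.6 and 57.6 CPM in Finerenone. The groups did not overlap, and the log2 fold change was -0.64 ± 0.10 (adjusted p = 0.00162 by edgeR). DOCA had 131, 137 and 149 CPM, so that this gene differed from Control in opposite directions in DOCA (0.60 ± 0.11, adjusted p = 0.000275) and in Finerenone. The difference between Finerenone and DOCA was -1.24 ± 0.11 (adjusted p = 3.07e-06).

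Snn (stannin, a small membrane protein) had 103, 110, 119 and 74.7 CPM in Control, 64.6, 70.0, 54.4 and 73.7 CPM in Finerenone and 139 ± 26.0 CPM in DOCA. Finerenone 4 came within 1 CPM of Control 4, and the log2 fold change was -0.63 ± 0.15 (adjusted p = 0.0184 by edgeR). Ubxn8, a UBX-domain protein of the endoplasmic reticulum, was lower at 22.3 ± 2.19 CPM against 32.4 ± 6.16 in Control, with 22.2 ± 2.13 in DOCA. Snn was not called on the TPM scale, nor was Ubxn8 on the TPM scale or when scaled by library size alone. Their adjusted p reached 0.0605 and 0.0953 when single libraries were left out.

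Among called genes whose groups did not overlap and whose mean log2 CPM reached 1, the largest fall belonged to a gene without a symbol, ENSRNOG00000009329. It had 189, 103, 156 and 62.3 CPM in the Control libraries and 11.5, 11, 11.7 and 13 CPM in the Finerenone libraries. The Controls were widely spread and still lay wholly above the Finerenone libraries, which were almost equal. The log2 fold change was -3.44 ± 0.42 (adjusted p = 0.00162 by edgeR). In DOCA the gene had 62.5, 65.1 and 51.1 CPM, and Finerenone was lower than DOCA by an estimate of -2.34 ± 0.44 (adjusted p = 0.00388).

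ENSRNOG00000042717 was the next largest fall by the same rule, with 9.14, 6.08, 10.34 and 1.59 CPM in Control and 0.709, 0.285, 0.628 and 0.895 CPM in Finerenone (-3.41 ± 0.59, adjusted p = 0.00319 by edgeR). Its Finerenone values were near the floor of detection.

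Among unnamed genes that rose, ENSRNOG00000048782 had no count in any Control library and 28 counts over the 4 Finerenone libraries. Against the floor of 3 counts per library it was at least 2.13-fold higher in Finerenone. ENSRNOG00000029401 had 4 counts over the Controls and 123 over Finerenone, at 13.2, 1.85, 1.51 and 0.746 CPM. Most of that signal lay in Finerenone 1, and the call (adjusted p = 0.0339 by edgeR) was lost without any one of the Control libraries, where the adjusted p reached 0.103. With so few Control counts, both genes could meet the count limit only through the Finerenone libraries. Their direction was thus fixed by the filter, and their values are no evidence of a rise. Neither was called with limma on log2(TPM + 1), at adjusted p of 0.198 for ENSRNOG00000048782 and 0.141 for ENSRNOG00000029401.

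Cell cycle genes were called higher in 7 of 23 members with a symbol (Cdk1, Kif20a, Mcm3, Mcm5, Mki67, Top2a and Tpx2), with none lower and 16 not called. Their median was 0.46, against 0.31 over all genes with a symbol, of which 16.5% were called higher. Mki67, the proliferation antigen, had 5.42, 6.55, 6.15 and 6.06 CPM in Control and 9.51, 13.7, 10.29 and 12.1 CPM in Finerenone. It did not overlap between groups and rose by 0.91 ± 0.23 on the log2 scale (adjusted p = 0.0305 by edgeR). This call was lost in 5 of 8 fits without single libraries (adjusted p up to 0.0993 by edgeR). In DOCA it had 36.9, 38.0 and 27.0 CPM, well above Finerenone (Finerenone against DOCA -1.58 ± 0.22, adjusted p = 9.74e-05).

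Cdk1, the kinase that drives mitosis, and Top2a, the topoisomerase of dividing cells, went from 1.91 ± 0.57 to 4.80 ± 1.29 CPM and from 4.4 ± 1.27 to 9.95 ± 0.73 CPM. The number of cell cycle calls was among the least steady. It was 4 without Control 1, 2 without Control 2, 1 without Control 3, 2 without Finerenone 2 and 2 without Finerenone 4. With Finerenone 1 and 3 alone it was 0 by edgeR, with 9 genes higher at an unadjusted p under 0.05, and with Finerenone 2 and 4 alone it was 7, with 13.

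Immediate early genes, which growth factors and stress switch on within minutes, were called higher in 5 of 14 members with a symbol (Atf3, Btg2, Ier5, Jun and Myc). None was lower and 9 were not called. Their median was 0.50, against 0.31 over all genes with a symbol, of which 16.5% were called higher. Jun encodes a subunit of the AP-1 transcription factor. It had 110, 108, 78.7 and 96.6 CPM in Control and 184, 205, 131 and 158 CPM in Finerenone, without overlap (0.79 ± 0.15, adjusted p = 0.00533 by edgeR). DOCA stood at 194 ± 41.7 CPM, and its difference from Finerenone did not pass the test (-0.20 ± 0.15, adjusted p = 0.401).

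Atf3, a stress-induced partner of Jun, had 6.82, 3.28, 3.07 and 9.72 CPM in Control and 12.201, 27.3, 16.6 and 26.3 CPM in Finerenone (1.85 ± 0.38, adjusted p = 0.0157 by edgeR). Finerenone 2 and 4 were its highest libraries, as they were for Myc, at 22.3 and 23.9 CPM against 10.2 and 13.9 in Finerenone 1 and 3. In 10 of the 14 genes (71.4%) both libraries with the first number 3 were above both with the number 2. With Finerenone 1 and 3 alone 0 of the 14 were called by edgeR and 6 were higher at an unadjusted p under 0.05, and with Finerenone 2 and 4 alone these counts were 7 and 9. The count was 8 without Control 4.

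Since Jun was called, the promoters of the called genes were searched for the AP-1 motif TGANTCA, which reads the same on both strands, in the 250 bases before each start in RefSeq (GRCr8). It was found in 26 of the 242 genes called higher that had a single promoter sequence (10.7%) and in 2122 of all 33469 promoters of the table (6.34%). The latter share also counts promoters of genes not fitted here, so these shares come from unlike sets and are given side by side only. The steroid receptor motif, GNACA and TGTNC with 3 further bases between them, also searched on both strands, was found in 0 of the 242 and in 125 of all promoters (0.373%). With the receptor motif in only 0.373% of all promoters, 242 promoters are too few to show a lack of it. No conclusion is drawn from that count of 0. Neither motif was in the promoters of the 12 leading genes that had a single sequence, and these are also too few to show a lack. Matching letters are a description of the sequence and say nothing of whether a factor binds there. Of the genes on the lists, 7 held an AP-1 match (Anxa2, Cd68, Cfp, Col6a1, Cxcl10, Gbp2 and Gpnmb), and 3 of them, from the macrophage and the matrix genes, are shown, with the match in capitals. They are Gpnmb (a glycoprotein of lipid-laden macrophages and injured cells, chr4:79340878-79341127, plus strand), Col6a1 (a chain of the beaded type VI collagen, chr20:11905440-11905689, plus strand) and Cd68 (a lysosomal protein of macrophages, chr10:54882442-54882691, minus strand).

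Gpnmb: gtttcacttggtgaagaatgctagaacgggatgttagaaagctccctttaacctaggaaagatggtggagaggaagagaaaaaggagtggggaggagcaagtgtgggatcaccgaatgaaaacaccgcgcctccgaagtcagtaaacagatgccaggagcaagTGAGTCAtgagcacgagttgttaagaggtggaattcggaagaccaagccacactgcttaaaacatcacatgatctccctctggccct
Col6a1: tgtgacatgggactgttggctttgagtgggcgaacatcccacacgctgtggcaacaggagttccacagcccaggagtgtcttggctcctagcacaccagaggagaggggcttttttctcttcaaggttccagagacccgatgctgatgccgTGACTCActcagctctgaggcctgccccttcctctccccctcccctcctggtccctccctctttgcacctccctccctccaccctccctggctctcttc
Cd68: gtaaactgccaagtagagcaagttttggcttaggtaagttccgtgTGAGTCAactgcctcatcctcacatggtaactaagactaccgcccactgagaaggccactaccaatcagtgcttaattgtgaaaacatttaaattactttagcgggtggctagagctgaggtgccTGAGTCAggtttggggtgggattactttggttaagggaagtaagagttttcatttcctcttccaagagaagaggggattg

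The match begins 87 bases before the start of Gpnmb and 99 bases before that of Col6a1, and the Cd68 promoter holds matches at 205 and 80 bases before the start. Gpnmb went from 6.5 ± 2.36 CPM in Control to 16.2 ± 4.37 in Finerenone (1.31 ± 0.28, adjusted p = 0.0135 by edgeR). Col6a1 went from 38.9 ± 9.99 to 75.9 ± 6.04 CPM and Cd68 from 8.17 ± 1.39 to 14.3 ± 2.62 CPM.

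Some of the leading genes stood outside the larger lists. Adra1d, an alpha-1 adrenergic receptor that constricts vessels, had 1.39, 2.34, 1.40 and 1.91 CPM in Control and 8.51, 17.1, 8.16 and 15.8 CPM in Finerenone. The groups were wide apart, Finerenone 2 and 4 were again highest, and the log2 fold change was 2.80 ± 0.35 (adjusted p = 0.000659 by edgeR). Adra1d was the 1 gene called among 6 endothelial and vascular genes with a symbol. Stab1, a scavenger receptor of macrophages and sinusoidal endothelium, went from 3.00 ± 0.13 to 10.27 ± 2.38 CPM (1.77 ± 0.20), and Tpbg, the trophoblast glycoprotein, from 1.97 ± 0.96 to 9.28 ± 3.50 CPM (2.23 ± 0.33).

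Angptl4, a secreted inhibitor of lipoprotein lipase, had 1.70, 2.03, 1.82 and 1.75 CPM in Control and 7.24, 10.4, 5.90 and 7.91 CPM in Finerenone. Its Controls were nearly equal, and the difference was 2.09 ± 0.26 on the log2 scale (adjusted p = 0.000225 by edgeR). Angptl4 and Ucp2, a carrier of the inner mitochondrial membrane, were the 2 called of 4 lipid and fatty acid genes with a symbol, and neither encodes an enzyme of the oxidation itself. Among genes of high TPM outside the lists, Tsc22d1 (a leucine zipper protein induced by TGF-beta) went from 520 ± 86.3 to 902 ± 208 CPM and Tmsb4x (thymosin beta-4, which binds actin monomers) from 387 ± 85.2 to 625 ± 151 CPM. Tmsb4x lost its call in 5 of 8 fits without single libraries (adjusted p up to 0.0912 by edgeR).

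Of the smaller lists, the loop of Henle had 1 gene called higher of 3 with a symbol. It was Cldn19, a claudin of the cation-selective tight junctions, at 10.7 ± 1.40 and 16.7 ± 2.53 CPM (adjusted p = 0.025 by edgeR, up to 0.0758 without single libraries). In antioxidant defence edgeR called 0 of 7 and limma-voom 0, DESeq2 called 1, and 4 had an unadjusted p under 0.05. One of these, Sod3, an extracellular superoxide dismutase, had an adjusted p of 0.0269 with a log2 fold change of 0.39, under the size set for a call. Gpx2, a glutathione peroxidase of that list, had 7.59 ± 4.47 CPM in Control and 24.1 ± 10.4 in Finerenone (adjusted p = 0.0746). Growth factor genes gave 1 of 7 (Myc). By edgeR 0 were called of 4 podocyte genes, although Ptpro, a podocyte phosphatase and the 1 gene of these at an unadjusted p under 0.05, had an adjusted p of 0.0319 and a log2 fold change of -0.40, too small for a call. EdgeR also called 0 of 3 genes of endoplasmic reticulum stress (0 unadjusted) and 0 of 2 of proximal tubule function (Slc2a2 and Acsm3, 1 unadjusted), and DESeq2 and limma-voom called none of these. The 1 gene of the renin-angiotensin list, Ctsd, had a log2 fold change of 0.49 and an adjusted p of 0.0182, under the size set for a call, and limma-voom called it. No circadian clock gene had a symbol. Adipoq, a fat gene and the 1 marker of other tissues with a symbol, ranged from 6.53 to 8.11 CPM in Control and from 5.69 to 8.66 CPM in Finerenone and overlapped between groups.

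Over all lists, 219 genes had a symbol, of which 88 were called higher, 1 lower and 130 not called. At an unadjusted p under 0.05, 142 were higher and 6 lower. These counts describe genes that the study itself had selected for a difference between DOCA and Control.

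**Figure D5:**
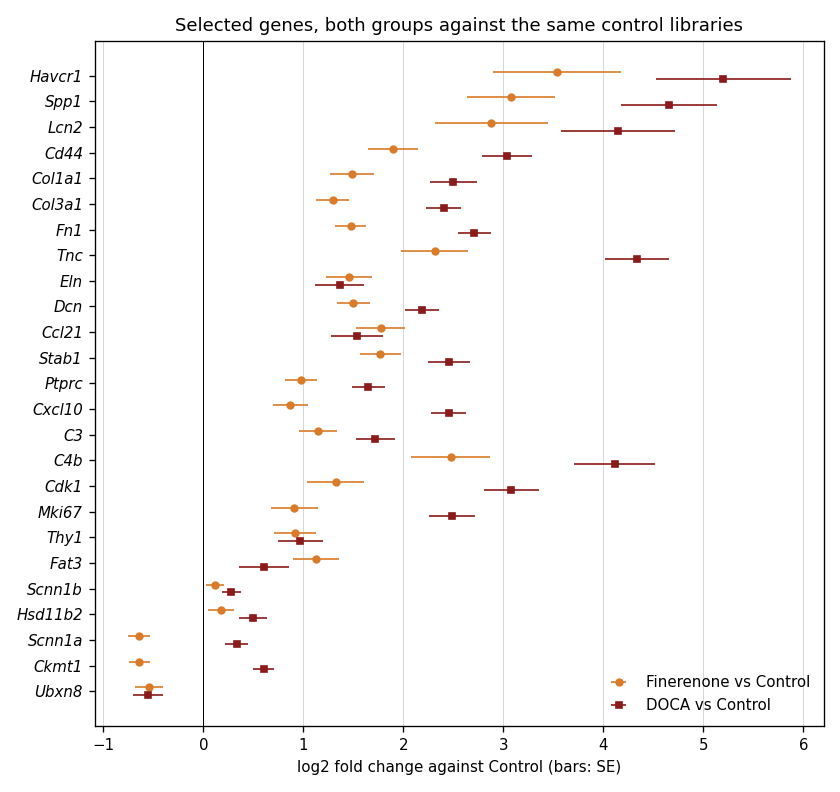
Log2 fold change against Control (horizontal axis) for 25 selected genes in Finerenone (orange circles) and DOCA (dark red squares), with SE as error bars. Both share the Control libraries. Most genes lie nearer to 0 in Finerenone than in DOCA, Eln and Ccl21 lie at a similar value, and Scnn1a and Ckmt1 lie below 0 in Finerenone and above it in DOCA.

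Of the 479 genes called higher in Finerenone, 26 had an adjusted p of at least 0.05 for DOCA against Control (edgeR). So had 46 of the 124 genes called lower. This does not show that their DOCA level equals that of Control. Only 4 of these genes had a symbol, Fat3, Ypel2, Igsf9 and Ldlrad4, all called higher. Fat3, an atypical cadherin, had 2.32, 5.15, 3.77 and 5.42 CPM in Control and 7.95, 9.11, 9.92 and 9.40 CPM in Finerenone. The groups did not overlap, and the log2 fold change was 1.13 ± 0.23 (adjusted p = 0.00713 by edgeR). In DOCA it had 5.89, 6.81 and 6.31 CPM, above each Control (0.60 ± 0.25, adjusted p = 0.0632), and the difference between Finerenone and DOCA did not pass the test (0.52 ± 0.23, adjusted p = 0.125). Ldlrad4, an inhibitor of TGF-beta signaling, went from 11.5 ± 2.33 to 17.6 ± 2.51 CPM with 15.8 ± 3.2 in DOCA. Differences between Finerenone and DOCA were 0.24 ± 0.26 for Ypel2, 0.26 ± 0.22 for Igsf9 and 0.16 ± 0.18 for Ldlrad4, so that none of the 4 was shown to differ between drugged and undrugged rats. Fat3 kept its call without any single library, whereas Ypel2, Igsf9 and Ldlrad4 each lost it in 6 of 8 such fits (adjusted p up to 0.12, 0.1 and 0.108 by edgeR) and in the fit of the 8 compared libraries alone. Fat3 in turn lost its call with Finerenone 1 and 3 alone (adjusted p = 0.0707 by edgeR) and with libraries of the same first number summed (adjusted p = 0.0773 by edgeR). With limma on log2(TPM + 1) it was not called either (0.37, adjusted p = 0.0559).

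Across all called genes, the pair of Finerenone libraries on top differed with the direction of the call. Over all 13897 genes either pair was on top about equally often, as given above. Of the 479 genes called higher, 224 (46.8%) were higher in both libraries with the number 3 than in both with the number 2, and 32 (6.68%) showed the reverse. Of the 124 called lower, 9 (7.26%) and 47 (37.9%) did so. Fits with either pair alone, chosen after seeing the data, called 158 genes with Finerenone 1 and 3 (129 higher, 29 lower) and 972 with Finerenone 2 and 4 (631 higher, 341 lower). By the order of CPM, Finerenone 2 and 4 were more often the pair further from Control among called genes, in both directions. The counts of calls also depend on the spread within each pair. The part of the first number in these results was not tested.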

How the data were processed

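Bulk RNA-seq was made from poly(A) RNA of kidney pieces with strand-specific libraries. Per the labels and the study's methods, the authors trimmed reads with Trim Galore 0.4.5, aligned them to rn6 with STAR 2.7.3a and quantified them with RSEM. The annotation is not given in the sources used here. The authors deposited a table of estimated counts, of which 3.14% of values were not whole, and a table of TPM, both per library with no pooling. Estimated counts were rounded, scaled by TMM and tested with edgeR 4.0.16 (quasi-likelihood F test, robust; R 4.3.3, limma 3.58.1, DESeq2 1.42.0) over 14 of 16 libraries. DOCA 4 and Spironolactone 4, set aside in the study, were left out, and the other 14 shared 1 estimate of the spread. Fitted were the 14628 genes that had a count above 4 in 3 or more of the 14. Adjustment of p-values ran over all of these, and the 13897 with such counts in the 8 compared libraries are described. CPM were TMM-scaled. SEs were taken from the log2 fold change and the F statistic. Libraries of a group differed by more than sampling noise (chi-square per gene 4.72 to 19.5 in 12 pairs). The study describes each bulk library as a rat sample, and the labels give no animal numbers, so p-values measure the spread between these libraries.

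A gene was called at an adjusted p under 0.05 and a log2 fold change of 0.5 or more in size. Named were, among called genes that had a symbol, whose groups did not overlap and whose mean log2 CPM reached 1, those with the largest changes (up to 10 each way), up to 5 with an adjusted p for DOCA against Control not under 0.05, the 5 smallest adjusted p, the 5 highest TPM, and genes of fixed lists. At most 2 unresolved identifiers are named each way. Symbols were joined by TPM identical to 2 decimals in 7 libraries (3 symbols over 14 libraries). The TPM in the study's tables served only for this join, which was made on values since the numbering of the Controls there differs from the labels. The genes and lists were chosen with earlier results of these data known. Promoters came from RefSeq (GRCr8), a build other than that of the files. Alternatives covered scaling, filters, tests, library sets, a replicate block and single libraries left out. Fits with either pair of Finerenone libraries were added after seeing the data. Scripts were tested on simulated data.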

Additional observations from a re-analysis of the deposited data

Results flagged for a closer look

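In groups of 4 libraries, a value was picked out where its gap to the nearest other library exceeded Dixon's 95% critical share of the group's range. The test was run on 228 groups (112 genes named in the text in Finerenone and in Control, with library totals and the share of abundant genes), and 15 values passed. Chance flags about 1 in 20 groups, which is close to what was seen.

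Finerenone 1 held 4 of these values. Acta2 stood at 88.1 CPM there, against 34.3 to 36.6 CPM in the other Finerenone libraries, and ENSRNOG00000029401 at 13.2 CPM against 0.746 to 1.85. On the low side, Col15a1 was at 39.6 CPM against 48.9 to 50.5, and Vcam1 at 23.7 CPM against 32.9 to 34.5. In Finerenone 3, Trpv5 was high at 27.5 CPM against 18.2 to 19.4, and Lyz2 was low at 346 CPM against 413 to 418. In Finerenone 4, Ldlrad4 was low at 13.9 CPM against 18.6 to 19.2, and Ptpro was low at 62.8 CPM against 70.4 to 71.6.

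Among the Controls, the library Control 4 stood apart most often. Ctsd had 824 CPM there against 576 to 618 in the others, Lyz2 had 309 CPM against 192 to 208, Gbp2 had 18 CPM against 8.52 to 9.91, and Ypel2 had 20.6 CPM against 7.96 to 9.45. Tpx2, a spindle assembly factor, was low in Control 4 at 2.71 CPM against 3.74 to 3.87. Cd24, a surface glycoprotein of immature epithelium, was low in Control 2 at 103 CPM against 126 to 128, and Cp (ceruloplasmin) was low in Control 1 at 36.9 CPM against 58.2 to 62.5.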

How the results depend on the processing

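Every named gene that was called kept its direction under every setting tried. Over the genes of the lists and rules, 5681 results of single genes kept their side of the threshold, 466 lost a call and 171 gained one. Against 603 called genes (479 higher, 124 lower), the count was 399 with all 16 libraries (74 lower), 172 with libraries of the same first number summed (145 higher, 27 lower) and 306 where the log2 change had to reach 1 in size (266 higher, 40 lower). With Finerenone 1 and 3 alone it was 158 (129 higher, 29 lower), and with Finerenone 2 and 4 alone 972 (341 lower). Lower genes numbered 76 when scaled by library size alone, 45 with limma on log2(TPM + 1), 52 on log2(TPM + 0.1) and 269 by adjusted p alone. Leaving out single libraries gave 348 to 835 called genes, 285 to 638 higher and 63 to 197 lower. Of list genes 89 were called, with 59 under all 16 libraries, 31 under summed first numbers, 32 with Finerenone 1 and 3 alone, 41 where the log2 change had to reach 1, and 66 to 107 without single libraries. DESeq2 called 797 genes, of which 595 were among the 603. The cause of these differences was not tested. Summing and leaving out libraries also leave fewer samples. Over all genes, the median log2 change moved from -0.02 to 0.10 with limma on log2(TPM + 0.1).

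Finerenone and Control share replicate numbers 1 to 4. Their deviations correlated by r = -0.103 to 0.215, and 1 of 4 Finerenone libraries correlated best with the Control of its own number. With 4 libraries in each group this is too little to settle whether samples of the same number were paired. The labels give no pairing. With a replicate block 690 genes were called. At 7063158 to 8056929 counts per library, genes under about 0.4 CPM could not be compared, and symbols were had for few of the genes called lower.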
